A study of Rattus norvegicus with 12 samples.

Results

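The comparison described here set 3 gastrocnemius arrays of nandrolone-treated rats against 3 arrays of vehicle-treated rats, all taken at day 35 after nerve section, which is 6 of the 12 arrays of the series. The arrays were chosen by their titles alone. All rats were male Wistar-Hannover animals in which the left sciatic nerve was transected, which removes the motor supply of the calf. In the first group nandrolone was given for 7 days, beginning 29 days after surgery, and in the second group vehicle was given over the same days. The remaining 6 arrays came from rats dosed for 7 days from the day of surgery and killed at day 7, 3 with nandrolone and 3 with vehicle. No innervated muscle, dose or vehicle composition is described in the sources used here, and each array stands for 1 labelled sample, so that p-values measure the spread between these samples.

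Nandrolone is an anabolic steroid, used for its effect on muscle mass. A muscle without its nerve atrophies, and part of that loss runs through ubiquitin ligases such as Trim63 (MuRF1) and Fbxo32 (atrogin-1), whose genes are driven by FoxO factors and by glucocorticoids. Glucocorticoids induce a well-known set of muscle genes, among them Sgk1, Klf15, Ddit4 and Nfkbia.

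Signals were the authors' linear intensities, brought to one distribution by quantile normalisation. Values called signals below are these normalised intensities, changes are differences of mean log2(signal + 16), nandrolone minus vehicle, and each ± gives limma's standard error (n = 3 arrays a group). Muscle identity was clear in all arrays, since all 15 muscle-defining genes were tested and their summed signals ran from 171485 to 191886 under nandrolone and from 184198 to 190611 under vehicle. Nandrolone replicate 3 stood apart. Its median deposited signal was 111, against 46.0 and 63.5 in the other nandrolone arrays and 44.8 to 60 under vehicle, and its mean correlation with its own group was 0.900, where the other 5 arrays reached 0.927 to 0.966. The 3' to 5' ratio of an array control reflects RNA integrity and labelling. For actin it was 2.57, 2.12 and 1.90 under nandrolone and 3.13, 2.68 and 3.71 under vehicle, without overlap. The groups did overlap for the Gapdh control, at 1.14 to 1.17 under nandrolone and 1.13 to 1.36 under vehicle. They also overlapped for the hexokinase control, at 1.37 to 7.15 under nandrolone and 2.49 to 12.97 under vehicle. The part of RNA integrity and labelling in the results was not tested. Changes of the genes and counts of the lists are therefore given with and without replicate 3.

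No probe set passed the threshold at day 35. Limma with Benjamini-Hochberg adjustment called 0 of 18626 probe sets (0%) at an adjusted p under 0.05, the lowest adjusted p being 0.268, and 1590 (8.54%) stood at an unadjusted p under 0.05. Without nandrolone replicate 3 the count was again 0 (0%), with a lowest adjusted p of 0.0887 and 1200 probe sets (6.44%) at an unadjusted p under 0.05. At an adjusted p of 0.10 that reduced comparison called 7 probe sets (0.0376%), all lower under nandrolone, of which 6 name the genes Sgk1, Depp1, Arrdc2, Nfkbia, Errfi1 and Ddit4. Limma with array quality weights, which let each array count by how closely it follows the group means, called 49 probe sets (0.263%) at 0.05, 12 higher and 37 lower. These weights were 0.641, 1.95 and 0.209 for the nandrolone arrays and 3.32, 0.677 and 0.601 for the vehicle arrays, so nandrolone replicate 3 counted least and vehicle replicate 1 most. Without vehicle replicate 3 the count was 1, a probe set with no gene name.

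Counted by gene, at an unadjusted p under 0.05, 343 of 10422 genes (3.29%) were higher under nandrolone and 478 (4.59%) lower. These counts are the background for the gene groups below. Signals of the 2 groups did not overlap, with nandrolone above, for 464 genes (4.45%), and with nandrolone below for 770 (7.39%). Without nandrolone replicate 3 these shares were 2.25% higher and 2.76% lower at an unadjusted p under 0.05, and 8.64% above and 11.3% below without overlap. The balance of directions depended on scale: at an unadjusted p under 0.05 quantile normalisation left 656 probe sets higher and 934 lower, the deposited values without it 1356 higher and 89 lower, and median centring 553 higher and 1215 lower. The median change of all tested probe sets was -0.04, 0.26 and -0.10 on these 3 scales.

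The gene with the smallest p was Sgk1, a kinase gene induced by glucocorticoids and by cell stress. Its signal was 1434, 955 and 1304 under nandrolone and 2562, 2628 and 2481 under vehicle. The vehicle arrays lay close together and all nandrolone arrays lay well below them, a change of -1.07 ± 0.16 (adjusted p = 0.268, limma). Without nandrolone replicate 3 it was -1.13 (adjusted p = 0.0887), and with array weights -1.24 (adjusted p = 0.0122).

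Depp1, a FoxO target linked to autophagy, followed the same pattern. Its signal was 288, 311 and 454 under nandrolone and 744, 746 and 730 under vehicle, a change of -1.07 ± 0.21. Replicate 3 was the highest of the nandrolone arrays and still below all vehicle arrays, and without it the change was -1.28. Mybph, a thick-filament protein gene, had signals of 5201, 3333 and 4202 under nandrolone and 9295, 8951 and 6920 under vehicle, a change of -0.99 ± 0.18. Rbfox1, a splicing factor of muscle and nerve, had 4996, 2902 and 2834 under nandrolone and 6655, 5278 and 5955 under vehicle. For both genes the groups were apart, by a small margin for Rbfox1 (-0.78 ± 0.19), and without replicate 3 they stood at -1.001 and -0.64. Its 3 other probe sets read -0.02, -0.67 and -0.53.

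A pair of mitochondrial carriers was among the leading genes. Ucp3, the uncoupling protein of skeletal muscle, had signals of 508, 828 and 467 under nandrolone and 1217, 1170 and 1321 under vehicle, a change of -1.07 ± 0.20. Slc25a33, a mitochondrial carrier of pyrimidine nucleotides, had 87.3, 83.2 and 67.6 under nandrolone and 156, 133 and 155 under vehicle, a change of -0.79 ± 0.17. Neither group overlapped the other in these signals. The changes without nandrolone replicate 3 were -0.92 for Ucp3 and -0.70 for Slc25a33. A further Ucp3 probe set read -0.69, with overlapping groups, and -0.40 without that array. The list of mitochondrial biogenesis and uncoupling genes as a whole stayed near the background, with 1 of 20 tested genes lower and 0 higher at an unadjusted p under 0.05 and a median of -0.11, against -0.04 over all tested genes. Without that array it had 1 lower, 1 higher and a median of 0.05.

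Other low genes were regulators of signalling and transcription. Pde4b, a phosphodiesterase that breaks down cyclic AMP, had signals of 264, 338 and 386 under nandrolone and 574, 531 and 530 under vehicle (-0.72 ± 0.16). Sertad1, a transcriptional co-regulator, had 399, 340 and 396 under nandrolone and 578, 729 and 711 under vehicle (-0.80 ± 0.16). Both were separated in every array, and without nandrolone replicate 3 each stood at -0.84. A second Pde4b probe set read -0.61, with overlapping groups. The orphan receptor gene Gpr19 stood at -0.97 ± 0.24 and Vof16 at -1.60 ± 0.30, the second from low signals of 15.0 to 46.1 under nandrolone against 103 to 125 under vehicle. Without replicate 3 they were -0.84 and -1.35.

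**Figure D1:**
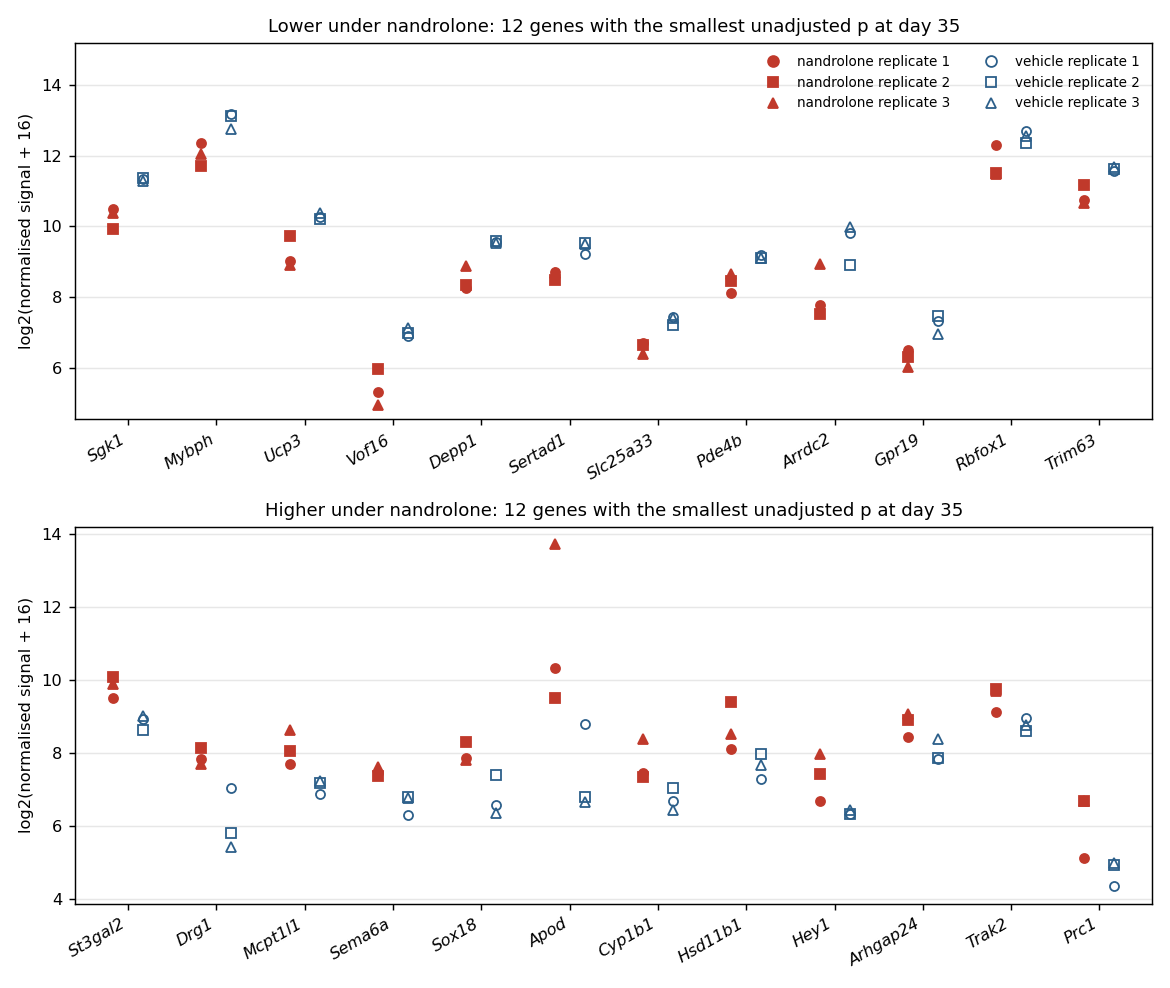
Log2(normalised signal + 16) of each day 35 array for the 12 genes lower under nandrolone (top) and the 12 higher (bottom) with the smallest unadjusted p, nandrolone arrays filled and left, vehicle arrays open and right, 1 point per array. Sgk1 and Depp1 show close vehicle points with all nandrolone points below, and Apod shows nandrolone replicate 3 far above all other arrays.

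Among genes higher under nandrolone, St3gal2, which encodes a sialyltransferase, had the smallest p. Its signal was 716, 1068 and 940 under nandrolone and 475, 379 and 503 under vehicle, a change of 0.97 ± 0.18. Its second probe set gave 1.05, the groups did not overlap in either, and the change without nandrolone replicate 3 was 0.95. Hsd11b1, whose enzyme turns inactive glucocorticoid into its active form, had 262, 659 and 349 under nandrolone and 139, 233 and 189 under vehicle (1.04 ± 0.28). Sox18, a transcription factor of vessel endothelium, had 215, 296 and 209 under nandrolone and 79.7, 152 and 65.8 under vehicle (1.21 ± 0.30). Without replicate 3 Hsd11b1 stood at 1.13 and Sox18 at 1.30. St3gal2, Hsd11b1 and Sox18 passed at 0.05 with array weights, as did the mast cell protease gene Mcpt1l1 (1.05) and Prc1, a gene of cytokinesis (1.81). Without weights Mcpt1l1 stood at 1.04 ± 0.23 and Prc1 at 1.41 ± 0.39, and without replicate 3 at 0.79 and 1.12. Prc1 was dim, at 18.5, 86.5 and 86.3 under nandrolone and 4.15, 14.3 and 15.8 under vehicle. Its vehicle signals lay below the 16 added before the log2 scale.

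Apod, which encodes a lipid-binding secreted protein and is on the list of androgen-responsive genes, had the largest change among the 24 leading genes. Its signal was 1280, 711 and 13560 under nandrolone and 427, 94.5 and 84.8 under vehicle. All nandrolone arrays were above all vehicle arrays, but replicate 3 was far above the rest. The change was 3.78 ± 0.96 (adjusted p = 0.562, limma) and 2.53 without that array. On the same list 1 of 17 tested genes was higher and 0 lower at an unadjusted p under 0.05, and its median was 0.03, so Apod was the only member of that list to reach this level. Without replicate 3 the list again had 1 higher and 0 lower, with a median of -0.04. The nitric oxide synthase gene Nos1 was not among the tested genes.

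The remaining leading genes higher under nandrolone had smaller changes. Hey1, a target of Notch, had signals of 86.4, 154 and 235 under nandrolone and 63.9, 63.5 and 70.2 under vehicle (1.00 ± 0.27). Replicate 3 was the highest there, and the change without it was 0.69. Cyp1b1, a cytochrome P450 gene, stood at 1.01 ± 0.27, the guidance factor gene Sema6a at 0.86 ± 0.21, the GTPase regulator gene Arhgap24 at 0.77 ± 0.21 and Trak2, an adaptor of mitochondrial transport, at 0.75 ± 0.21. A second probe set read 0.29 for Sema6a, with overlapping groups, and 0.36 for Trak2, without overlap. Without replicate 3 Cyp1b1, Sema6a, Arhgap24 and Trak2 stood at 0.68, 0.79, 0.65 and 0.67. Drg1, a GTPase gene, stood at 1.80 ± 0.35, and at 1.89 without that array.

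Genes induced by glucocorticoids had the lowest median of the lists with at least 8 tested genes. The order did not hold without nandrolone replicate 2, where the atrophy list was lower (-0.43 against -0.34), nor without vehicle replicate 1, where tendon and cartilage markers were (-0.62 against -0.51). Of 20 tested members 8 were lower under nandrolone at an unadjusted p under 0.05 and 0 higher, with 16 changes below 0 and a median of -0.46, where all tested genes had -0.04 and 4.59% lower. Without nandrolone replicate 3 the numbers were 11 lower, 0 higher and a median of -0.62. The median lay between -0.62 and -0.34 when each of the 6 arrays was left out in turn. It was -0.30 on the deposited scale and -0.66 after median centring, which is -0.56 on both once the shift of all probe sets is taken off. None of the members passed at an adjusted p under 0.05. With array weights 4 of them did, namely Sgk1, Nfkbia, Ddit4 and Cebpd.

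The 8 members were Sgk1, Klf15, Nfkbia, Cebpb, Gadd45g, Foxo1, Klf9 and Glul, of which Cebpb, Gadd45g, Klf9 and Glul, like Cebpd and Tsc22d3 below, were named after their values were seen. Klf15, a regulator of amino acid breakdown, had signals of 1332, 900 and 934 under nandrolone and 1795, 1707 and 1555 under vehicle (-0.69 ± 0.19). Klf9 had 3615, 2720 and 3659 under nandrolone and 4785, 4355 and 4589 under vehicle (-0.47 ± 0.17). In both, all nandrolone arrays were below all vehicle arrays, though a second Klf15 probe set read -0.54 with overlapping groups. Without replicate 3 Klf15 and Klf9 stood at -0.62 and -0.55. Cebpb, a transcription factor gene, stood at -0.78 with and without it. Glul, the gene of glutamine synthetase, stood at -0.46 with overlapping groups, and at -0.46 without it as well.

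Several members of the list were low in nandrolone replicates 1 and 2 and less so, or not at all, in replicate 3. Nfkbia, which encodes an inhibitor of NF-kappaB, had signals of 504, 448 and 1018 under nandrolone and 1171, 1176 and 1206 under vehicle. Ddit4, an inhibitor of mTORC1, had 238, 167 and 1004 under nandrolone and 811, 938 and 474 under vehicle. Replicate 3 lay just under the vehicle range for Nfkbia and above it for Ddit4. Their changes were -0.93 ± 0.26 and -1.01 ± 0.49 with replicate 3, and -1.30 and -1.77 without it. Genes outside the list behaved alike. Errfi1, a feedback inhibitor of the EGF receptor, had 573, 631 and 2111 under nandrolone and 1734, 1302 and 1809 under vehicle. Here replicate 3 exceeded every vehicle array, and the change of -0.79 ± 0.38 became -1.40 without it. Arrdc2, of the arrestin family, stood at -1.48 with replicate 3 and -1.94 without. List members with the same dependence were Cebpd (-0.71 and -1.21), Tsc22d3 (-0.39 and -0.71) and Gadd45g (-1.16 and -1.57). The osmotic stress factor gene Nfat5 stood at -0.82 and -1.05, while a second probe set of it read 0.07.

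**Figure D2:**
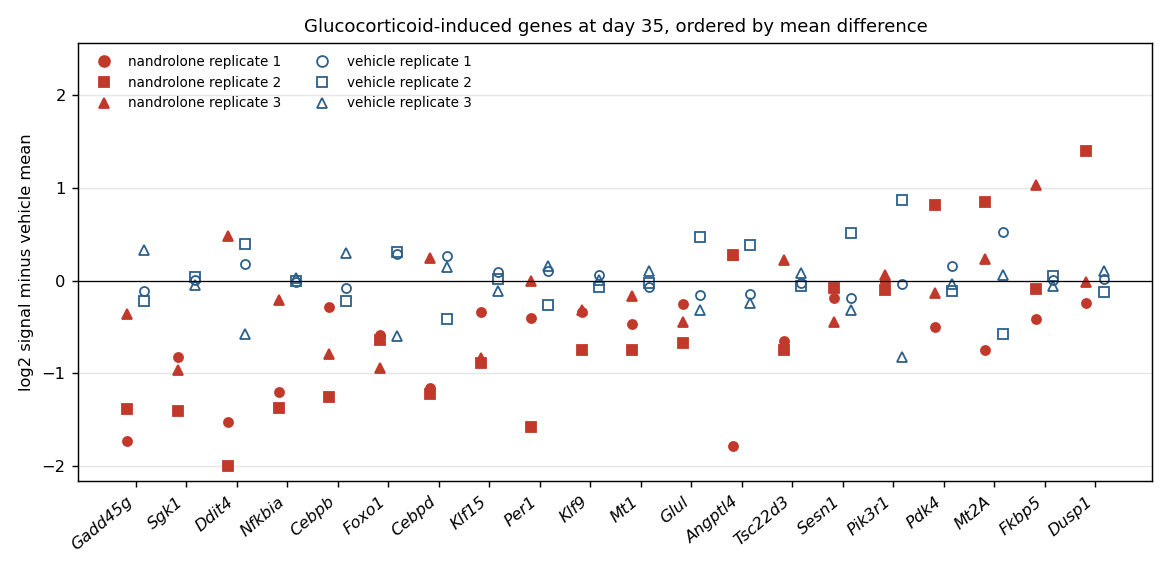
Log2 signal of each day 35 array minus the mean of the 3 vehicle arrays for the 20 tested glucocorticoid-induced genes, ordered by mean difference, with nandrolone arrays filled and left and vehicle arrays open and right. Sgk1, Klf15 and Klf9 lie below 0 in all nandrolone arrays, while Ddit4 and Cebpd lie below 0 in replicates 1 and 2 and above 0 in replicate 3.

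Atrophy genes were lower in part. Of 17 tested ubiquitin ligase and FoxO genes 4 were lower and 0 higher at an unadjusted p under 0.05, with 15 below 0 and a median of -0.44. There were 4 lower and 0 higher without nandrolone replicate 3, and the median was then -0.22. Foxo1 and Ddit4 stand on this list and on the glucocorticoid-induced one. Trim63, a ligase that marks thick-filament proteins for breakdown, had signals of 1710, 2275 and 1602 under nandrolone and 3032, 3137 and 3296 under vehicle. The vehicle arrays were nearly equal and every nandrolone array lay below them, a change of -0.77 ± 0.19 (adjusted p = 0.562, limma). The ligase gene Cblb was separated too, at 440, 416 and 403 under nandrolone and 586, 555 and 581 under vehicle (-0.44 ± 0.14). Foxo1 had 149, 143 and 113 under nandrolone and 288, 292 and 148 under vehicle, with 1 vehicle array inside the nandrolone range (-0.72 ± 0.25). Fbxo32 was dim, at 53.3, 79.5 and 49.5 under nandrolone and 116, 165 and 42.8 under vehicle, and its change of -0.57 ± 0.38 had a 95% interval of -1.40 to 0.26. Without replicate 3 Trim63 stood at -0.68, Cblb at -0.42, Foxo1 at -0.62 and Fbxo32 at -0.46.

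Of 33 tested proteasome subunit genes 4 were lower and 0 higher at an unadjusted p under 0.05, and 31 lay below 0, with a median of -0.20. With nandrolone replicate 3 left out, 1 was lower and 0 higher, 26 lay below 0 and the median was -0.08. Psmd1 stood at -0.62 ± 0.18, Psmc5 at -0.55 ± 0.20 and Psmb7 at -0.36 ± 0.14. In all 3 the groups did not overlap and replicate 3 was the lowest array, and without it they stood at -0.48, -0.32 and -0.24.

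The promoter of Trim63 is printed because it was the only one in either list to hold both motifs searched. The stretch runs from 250 bases before to 50 after the RefSeq start on the plus strand of the GRCr8 build, at chr5:151816986-151817285. Capitals mark TGTTCT, the hexamer bound by one unit of a steroid receptor dimer, and directly after it, with no shared base, the reverse complement of GTAAACA, a forkhead motif.

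Trim63: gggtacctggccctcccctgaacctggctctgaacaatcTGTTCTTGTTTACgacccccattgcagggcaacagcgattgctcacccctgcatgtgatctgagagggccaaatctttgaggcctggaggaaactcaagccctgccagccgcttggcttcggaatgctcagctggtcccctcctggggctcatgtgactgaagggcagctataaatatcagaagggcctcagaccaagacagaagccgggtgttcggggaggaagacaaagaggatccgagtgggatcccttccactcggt

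The hexamer begins 211 bases and the forkhead motif 205 bases before the start of Trim63. Searched on both strands, TGTTCT was present in the promoter of 21.6% of 27457 rat genes and GTAAACA in 4.13%. Of the 19 tested glucocorticoid-induced genes with a promoter in the table, 0 held TGTTCT and 2, Klf9 and Tsc22d3, held GTAAACA. Among 14 atrophy genes, Trim63 held both and Mdm2 held GTAAACA. A match is only a match of letters within this window.

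Tissue matrix and the markers of several non-muscle cell types were higher, mostly through nandrolone replicate 3. Of 34 tested collagen and extracellular matrix genes 14 were higher and 0 lower at an unadjusted p under 0.05, with 33 above 0 and a median of 0.92. Without replicate 3, 1 was higher, 29 were above 0 and the median was 0.35. Postn, a matrix protein of injured tissue, had signals of 782, 2804 and 10041 under nandrolone and 529, 474 and 998 under vehicle, a change of 2.13 ± 0.72 that was 1.23 without replicate 3. Tnc, the gene of tenascin C, had 172, 296 and 7244 under nandrolone and 31.9, 104 and 160 under vehicle, a change of 2.91 ± 1.10 that was 1.27 without it. Tnc was named from the tendon and cartilage markers, where 2 of 10 tested genes were higher and 0 lower at an unadjusted p under 0.05. Most of that list went the other way, with 7 below 0 and a median of -0.17. Without replicate 3, 1 was higher, 0 were lower and the median was -0.23. Lox, the collagen cross-linking enzyme gene, was less dependent on that array, at 536, 974 and 1183 under nandrolone and 186, 476 and 419 under vehicle, with changes of 1.31 ± 0.45 and 1.09. In bulk tissue, more cells of a type and more RNA per cell cannot be told apart.

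Marker lists moved with the same array. Adipocyte markers summed to 21291, 22428 and 37935 under nandrolone and 22773, 20804 and 20272 under vehicle. Macrophage markers summed to 4306, 5499 and 14293 under nandrolone and 4618, 3870 and 3472 under vehicle. Schwann cell and nerve markers summed to 4744, 3854 and 16632 under nandrolone and 3552, 4703 and 4943 under vehicle. In each list replicate 3 was the highest of all arrays. Of tested markers, 3 of 14 adipocyte, 2 of 18 macrophage, 2 of 8 Schwann cell, 1 of 13 endothelial, 2 of 15 smooth muscle and 3 of 14 fibroblast genes were higher and 0 of each were lower at an unadjusted p under 0.05. Without replicate 3 the counts of higher markers in the same order were 0, 1, 1, 0, 0 and 0, with 0 lower. Their medians were 0.72, 0.60, 0.49, 0.41, 0.36 and 0.48, and without replicate 3 they were 0.11, 0.29, 0.25, 0.02, 0.00 and 0.17. Mbp, a myelin gene, had 215, 191 and 3009 under nandrolone and 90.8, 38.1 and 54.5 under vehicle, so that even without replicate 3 the groups did not overlap (2.82 ± 0.86 and 1.56). Its 2 other probe sets read 0.17 and 1.80. The macrophage receptor gene Csf1r had 356, 281 and 321 under nandrolone and 197, 209 and 165 under vehicle (0.70 ± 0.25), with replicate 3 between the other nandrolone arrays and a change of 0.70 without it. The part of these cells in the other results was not tested.

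**Figure D3:**
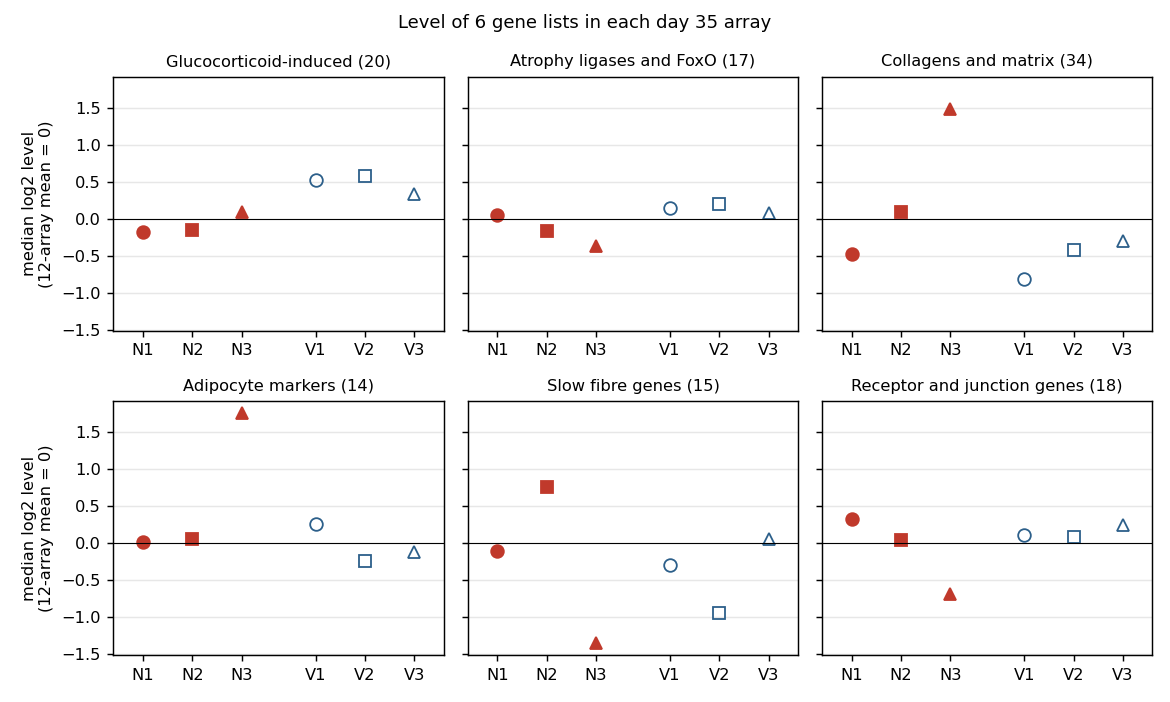
Median log2 level of 6 gene lists in each day 35 array, with each gene's mean over the 12 arrays set to 0, nandrolone arrays (N1 to N3, filled) left of vehicle arrays (V1 to V3, open) and the number of tested genes in brackets. Nandrolone replicate 3 is the highest array for collagens and adipocyte markers and the lowest for slow fibre and junction genes, and the glucocorticoid-induced list lies lower in all 3 nandrolone arrays than in any vehicle array.

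Slow fibre genes depended on single arrays in both directions. Of 15 tested members 0 were higher and 0 lower at an unadjusted p under 0.05, and the median was 0.20. It was 0.69 without nandrolone replicate 3, with 6 members higher, and -0.22 without nandrolone replicate 2. Ankrd2, a stretch-responsive gene of slow muscle, had signals of 48.1, 6738 and 121 under nandrolone and 114, 73.9 and 95.5 under vehicle. Casq2, the slow and cardiac calsequestrin gene, had 427, 3352 and 299 under nandrolone and 378, 301 and 624 under vehicle. A single array, nandrolone replicate 2, carried both, and without it the changes of 1.84 ± 1.18 and 0.85 ± 0.67 were -0.22 and -0.20. The immediate early gene Fos was high in the same array, at 599, 3606 and 478 under nandrolone and 419, 167 and 686 under vehicle (1.43 ± 0.91, and 1.99 without replicate 3). Its signals in nandrolone replicates 1 and 3 lay inside the vehicle range, and over the alternative settings its change ran from 0.53 to 2.35. Fast fibre genes, of which 0 of 18 reached an unadjusted p under 0.05, had a median of -0.06. Without replicate 3, 1 of these was higher and 1 lower, with a median of -0.07.

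At an unadjusted p under 0.05 genes that mark denervated muscle were near the background in number, though most lay below 0 with all arrays. Of 11 tested HDAC4 axis and denervation response genes 0 were higher and 0 lower, 10 lay below 0 and the median was -0.29. Without nandrolone replicate 3, 0 were higher and 1 lower, 5 lay below 0 and the median was 0.02. That gene was Gadd45a, at -0.60 ± 0.29 with the array and -0.80 without it. Of 18 tested acetylcholine receptor and junction genes 1 was higher and 1 lower, 12 lay below 0 and the median was -0.16. When nandrolone replicate 3 was omitted, 0 were higher and 0 lower, 7 lay below 0 and the median was 0.08. The lower one was Chrne, the adult receptor subunit gene, with signals of 399, 176 and 70.5 under nandrolone and 407, 518 and 324 under vehicle (-1.16 ± 0.41). The higher one was Utrn, the gene of utrophin (1.08 ± 0.42). Both leaned on replicate 3, and without it they stood at -0.60 and 0.66. Chrna1 stood at -0.44 ± 0.38, with a 95% interval of -1.26 to 0.38, and Chrng at 0.03 ± 0.97, an interval of -2.08 to 2.14 that leaves its change unresolved. Myog, the myogenic factor of denervated fibres, stood at -0.55 ± 0.26 and the adhesion molecule gene Ncam1 at -0.23 ± 0.36, and neither was separated. Without replicate 3 Chrna1 (0.03) and Ncam1 (0.31) changed sign, Chrng stood at 1.19 and Myog at -0.22.

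Most genes often named in androgen action on muscle overlapped between groups. Igf1 had signals of 1091, 1119 and 4351 under nandrolone and 914, 1256 and 1043 under vehicle, a change of 0.71 ± 0.44 that was 0.06 without nandrolone replicate 3. Apart from replicate 3 the groups overlapped. The ornithine decarboxylase gene Odc1 stood at -0.05 ± 0.17 with a 95% interval of -0.43 to 0.32, and Amd1, of the same polyamine pathway, at -0.28 ± 0.23. Without replicate 3 they stood at 0.0088 and -0.39. The myostatin gene Mstn stood at -0.09 ± 0.36 (interval -0.86 to 0.68), and overlapped between groups. Its antagonist Fst had 819, 606 and 277 under nandrolone and 845, 1072 and 932 under vehicle, apart by a narrow margin, with a change of -0.85 ± 0.39 and of -0.42 without replicate 3. A second Fst probe set read -0.39, with overlapping groups, and -0.021 without replicate 3. Ppargc1a, the co-activator of mitochondrial biogenesis, stood at -0.21 ± 0.39 (interval -1.05 to 0.62; second probe set 0.15), the Notch inhibitor gene Numb at 0.16 ± 0.23 and Igfbp5 at 0.09 ± 0.25, where 4 further probe sets ran from -0.77 to 0.72. Without replicate 3 all 3 signs turned, to 0.38 for Ppargc1a, -0.042 for Numb and -0.035 for Igfbp5, while Mstn stood at -0.071 and the second Ppargc1a probe set at 0.69 (unadjusted p = 0.019, adjusted p = 0.762, limma). Mt1, a metallothionein gene, was dim, with 21.5, 14.9 and 30.2 under nandrolone and 33.3, 34.9 and 39.4 under vehicle (-0.46 ± 0.28), the groups lying apart, and stood at -0.58 without replicate 3.

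Rcan2, a modulator of calcineurin, had signals of 1759, 1458 and 985 under nandrolone and 2890, 2058 and 1824 under vehicle. The groups did not overlap, with a change of -0.69 ± 0.24. A second probe set read -0.59, with overlapping groups, and -0.37 without nandrolone replicate 3. The calcineurin target Nfatc1 stood at -0.57 ± 0.23, and the kinase gene Camk2a at -0.81 ± 0.30, with 2 further probe sets at -1.98 and -0.25. The probe set at -1.98 shared the lowest adjusted p of 0.268, stood at -1.95 without nandrolone replicate 3 (adjusted p = 0.243) and passed with array weights (-2.27, adjusted p = 0.0122, limma). Without replicate 3 the brightest Rcan2 probe set stood at -0.47, Nfatc1 at -0.44 and the brightest Camk2a probe set at -0.47. Of the 17 tested genes of this pathway 3 were lower and 0 higher at an unadjusted p under 0.05, each gene read by its brightest probe set, and the median was -0.23. Without nandrolone replicate 3, 0 were lower and 1 was higher, and the median was -0.16.

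In Wnt signalling 4 of 21 tested genes were higher and 1 lower at an unadjusted p under 0.05, with a median of 0.23. With nandrolone replicate 3 left out, 1 was higher and 1 lower, and the median was 0.01. Wnt4, a ligand, had signals of 187, 115 and 75.7 under nandrolone and 280, 244 and 258 under vehicle (-1.04 ± 0.28). The secreted antagonist Sfrp1 had 198, 239 and 758 under nandrolone and 133, 157 and 147 under vehicle (1.11 ± 0.38), and the related gene Sfrp5 stood at 1.00 ± 0.34. All 3 were separated between groups, and without nandrolone replicate 3 their changes were -0.76, 0.54 and 0.75. In Notch signalling 2 of 18 genes were higher and 0 lower, Hey1 and Hey2, the second at 0.62 ± 0.27, and the median was 0.27. Without replicate 3, 1 was higher and 0 lower, the median was 0.10 and Hey2 stood at 0.27.

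Genes of fuel uptake stood higher in a few cases. Cd36, a fatty acid transporter, had signals of 816, 1416 and 1213 under nandrolone and 643, 762 and 335 under vehicle (1.01 ± 0.32), and lipoprotein lipase, Lpl, stood at 0.49 ± 0.18. They were the 2 of 25 fatty acid genes higher at an unadjusted p under 0.05, and 0 were lower, with a median of -0.11. When nandrolone replicate 3 was omitted, 5 were higher and 0 lower, and the median was 0.24. With nandrolone replicate 2 omitted instead, the median was -0.32. The glucose transporter gene Slc2a1 had 216, 239 and 284 under nandrolone and 180, 149 and 152 under vehicle (0.57 ± 0.21). Without replicate 3 Cd36 stood at 0.96, Lpl at 0.46 and Slc2a1 at 0.47. Oxidative phosphorylation genes, 0 of 45 at that level, had a median of -0.02. Without nandrolone replicate 3, 1 was higher, 0 were lower and the median was 0.15, and without nandrolone replicate 2 it was -0.15.

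The proliferation list had 2 of 19 tested genes higher and 0 lower, with a median of 0.48. Without nandrolone replicate 3, 1 was higher and 0 lower, and the median was 0.27. The licensing factor gene Mcm3 stood at 1.04 ± 0.38 and the mitotic kinase gene Cdk1 at 0.86 ± 0.34, both from signals under 80. In both the groups did not overlap, and without replicate 3 they stood at 0.79 and 0.85.

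**Figure D4:**
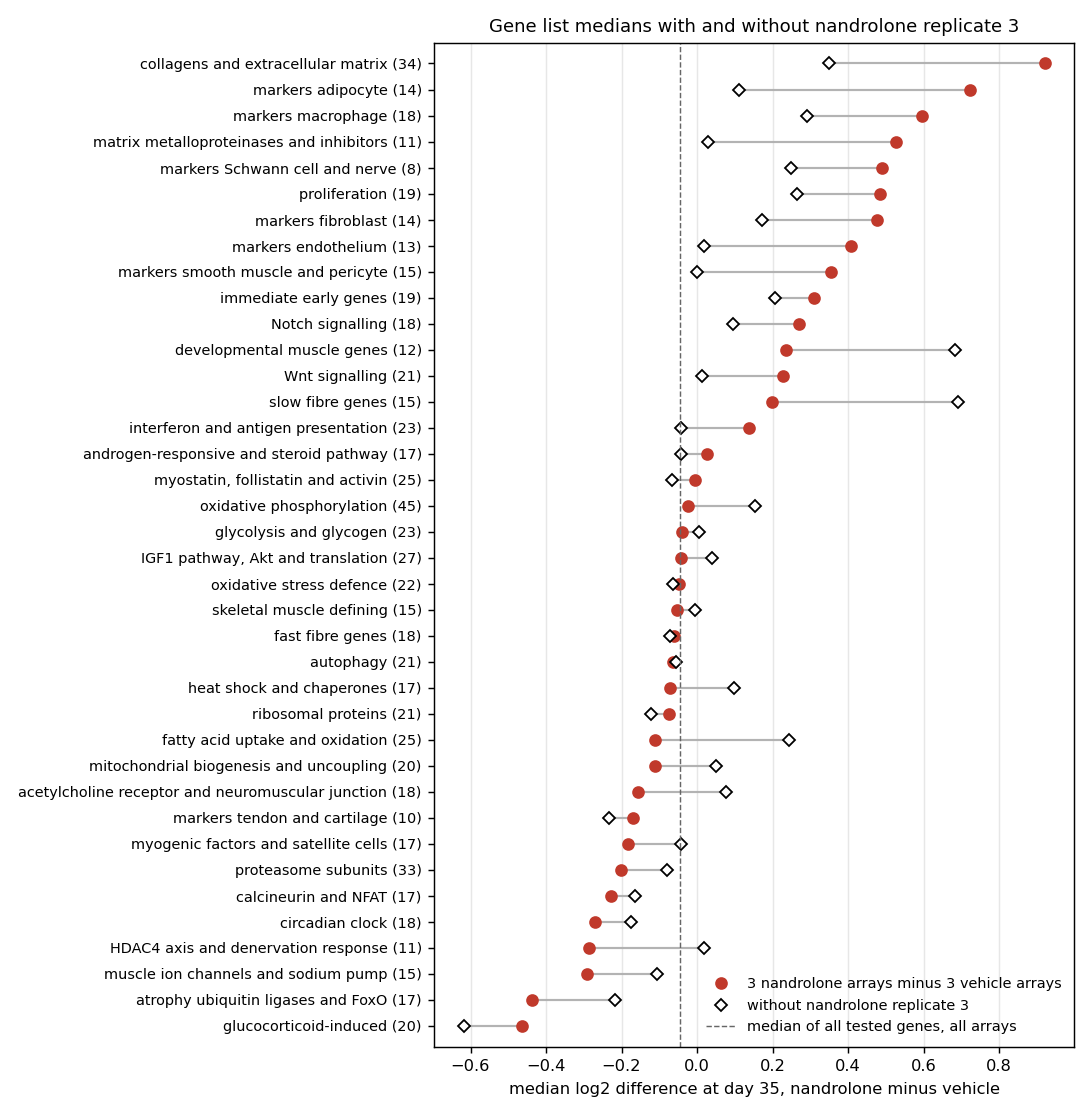
Median log2 change, nandrolone minus vehicle at day 35, of gene lists with at least 8 tested genes (number in brackets), with all 3 nandrolone arrays (filled) and without nandrolone replicate 3 (open); the dashed line is the median of all tested genes. The glucocorticoid-induced list is lowest in both settings, the matrix, adipocyte and macrophage lists move toward 0 without replicate 3, and slow fibre and developmental muscle genes move up.

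At day 7, after 7 days of dosing from the day of surgery, limma called 0 of 18626 probe sets (0%), with 331 (1.78%) at an unadjusted p under 0.05, and by gene 0.825% higher and 0.672% lower. The test of the difference between the changes at the 2 days called 0 (0%) as well, with 745 (4%) at an unadjusted p under 0.05, so no gene was shown to respond differently. Across 10422 genes the changes at day 35 and day 7, which share no array, had a Pearson r of 0.15, and of -0.02 without nandrolone day 35 replicate 3, given as a description only. Sgk1 stood at -1.07 at day 35 and -0.28 at day 7, Trim63 at -0.77 and -0.20, and Apod at 3.78 and 0.94. The median of the glucocorticoid-induced list was -0.46 at day 35 and -0.15 at day 7.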

How the data were processed

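Gastrocnemius RNA of 12 rats was hybridised to Affymetrix arrays. The deposited intensity values are linear signals per probe set, made with MAS5 per the submitters' processing notes, and its settings are not given in the sources used here. A second deposited file with 12 numbered columns and no key to the samples was not used. Of 31099 probe sets, 57 array controls were removed. The rest were put on a log2 scale after adding 16, quantile normalised over all 12 arrays, and the dimmest 40% by mean were dropped, which left 18626 for testing. GEO's platform annotation gave a single gene for 20826 probe sets, more than 1 for 436 and no gene for 9780. Symbols were updated to RefSeq GRCr8 for 20758 of them. Where a gene had several tested probe sets, the brightest on average stood for it, giving 10422 genes. Limma 3.58.1 in R 4.3.3 fitted 4 group means with an intensity trend and 8 residual degrees of freedom, and two-sided p-values were adjusted by Benjamini-Hochberg across the tested probe sets. An exact permutation test of 3 against 3 arrays cannot go below 0.1. The code was tested on simulated data.

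Groups came from sample titles. Since no gene was called, named genes were the 12 higher and 12 lower ones with the smallest p, 8 of each direction without nandrolone replicate 3, up to 3 per list, a fixed set of genes of interest, and 5 by the difference between days. Members and the 41 lists were chosen with earlier results of these data known, and lists are described by counts and medians alone. Arrays left out in turn, other scales, filters, pseudocounts, array weights and a replicate block were tried as alternatives. Promoters came from RefSeq, build GRCr8.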

Additional observations from a re-analysis of the deposited data

Results flagged for a closer look

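Ptgs2, the inducible cyclooxygenase gene, moved in opposite directions at the 2 days, with no overlap between groups at either. At day 35 its signal was 53.9, 186 and 135 under nandrolone and 31.4, 33.3 and 35.1 under vehicle. At day 7 it was 14.8, 59.7 and 74.8 under nandrolone and 107, 114 and 124 under vehicle. The difference between the 2 changes was 2.52 ± 0.58 on the log2 scale (limma interaction, adjusted p = 0.929). The clock gene Per3 stood at -0.78 at day 35 and 0.83 at day 7, a difference of -1.61 ± 0.45. Zfp212, a zinc finger gene, stood at -0.68 and 0.50, a difference of -1.18 ± 0.24, while its second probe set read 0.16 at day 35. Zbtb11os1, an antisense transcript gene, stood at -0.58 and 1.27, a difference of -1.85 ± 0.38, from signals of 8.77 to 70.9 over both days. Without nandrolone day 35 replicate 3 the day 35 changes were 1.26 for Ptgs2, -0.95 for Per3, -0.61 for Zfp212 and -0.66 for Zbtb11os1. These 4 were picked from the named genes by a rule that fixed their pattern. Every nandrolone array had to lie on one side of the vehicle arrays at day 35 and on the other at day 7. Ptgs2, Zfp212 and Zbtb11os1 had also been named for a small interaction p. The share of all tested genes that meet the rule was not counted. None of the differences between days passed adjustment, each having an adjusted p of 0.929.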

How the results depend on the processing

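The count of 0 at day 35 held under every alternative except 3: 49 with array quality weights, 1 without vehicle day 35 replicate 3 and 7 without nandrolone day 35 replicate 3 at an adjusted p of 0.10. All combinations of that omission with another setting were chosen after seeing the data. Leaving out single arrays gave 0 to 1 at day 35 and 0 to 1 at day 7, where the 1 came without vehicle day 7 replicate 3, and 0 for the difference between days. Probe sets at an unadjusted p under 0.05 numbered 3289 without nandrolone replicate 1, 1012 without vehicle replicate 1, 908 from the 6 day 35 arrays alone and 3600 with weights. The replicate number as a block gave 0 calls. The deviations of same-numbered arrays correlated at 0.07, -0.02 and 0.06 at day 35 and at 0.15, 0.08 and 0.11 at day 7, so not every pair exceeded 0.1 and the numbers were not taken as pairs.

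Of 98 genes followed, 87 kept their sign in all alternatives. Many of the 98 were named for a small p in the same data, so a kept sign was partly built in. The share over all tested genes was not counted. Leaving out single day 35 arrays gave, from lowest to highest, -0.21 to 0.79 for Cited4, -0.28 to 0.086 for Mstn, -0.12 to 0.37 for Igfbp5, -0.90 to 0.026 for Chrna1, -1.07 to 1.19 for Chrng, -0.21 to 0.050 for Odc1, -0.042 to 0.36 for Numb, -0.54 to 0.38 for Ppargc1a, -0.55 to 0.31 for Ncam1, -0.22 to 3.14 for Ankrd2 and -0.20 to 1.52 for Casq2. In the fit of only the 5 day 35 arrays other than nandrolone replicate 3, signs reversed for Igfbp5 (-0.035), Chrna1 (0.026), Odc1 (0.0088), Numb (-0.042), Ppargc1a (0.38) and Ncam1 (0.31). With the replicate block and without that array, Chrna1 was 0.0047, Odc1 0.042, Ppargc1a 0.45 and Ncam1 0.39. On the deposited scale Mstn was 0.26, Odc1 0.17, Ppargc1a 0.11 and Ncam1 0.029. After median centring Igfbp5 was -0.12 and Chrng -0.20. With weights Igfbp5 was -0.40, Odc1 0.014, Ppargc1a 0.20 and Ncam1 0.042. The cause was not tested. With 3 arrays a group, that number limits the precision.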

Other observations

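Of the 12 probe sets that share the lowest adjusted p of 0.268, 10 were lower under nandrolone and 5 name no gene. Of 12 tested developmental muscle genes 2 were higher and 0 lower at an unadjusted p under 0.05, with a median of 0.24. Without nandrolone replicate 3, 3 were higher and 0 lower, and the median was 0.68. The median was 0.002 without nandrolone replicate 1 and -0.03 without nandrolone replicate 2, so it depended on single arrays. Dlk1, a gene of developing muscle, had signals of 65.0, 49.7 and 66.8 under nandrolone and 17.4, 39.1 and 19.3 under vehicle (0.92 ± 0.28), and Nes, the intermediate filament gene nestin, had 204, 454 and 2104 under nandrolone and 141, 155 and 176 under vehicle (1.80 ± 0.59). Dlk1 was similar in all nandrolone arrays and stood at 0.83 without replicate 3, whereas the change of Nes was then 0.90.

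The clock factor gene Nfil3 stood at 1.16 ± 0.37, with signals of 99.7, 115 and 121 under nandrolone and 13.4, 41.9 and 93.6 under vehicle. Of 18 tested clock genes 1 was higher and 1 lower at an unadjusted p under 0.05. In that list 14 lay below 0 and the median was -0.27. Without nandrolone replicate 3, 1 was higher and 1 lower, 12 lay below 0 and the median was -0.18. Nfil3 then stood at 1.09. Leading genes of the comparison without nandrolone replicate 3 that depended on leaving it out were Cep350, a centrosomal gene (0.43 with it and 0.79 without), Cul2, a ubiquitin ligase scaffold gene (0.36 and 0.64), and Cited4 (0.16 and 0.79).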
